A study of Mus musculus with 12 samples.

Results

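Collagen chain genes encode the chains that wind together into collagen, the main protein of the extracellular matrix. They were taken as every gene in the count table whose NCBI Gene ID carries a mouse symbol made of Col, a number, the letter a and a number, which gave 44 of 27179 genes. RNA-seq was performed on 12 tibialis anterior (TA) muscles of 6 male wild-type C57BL/6N mice, which were 6 to 8 weeks old on arrival and entered the experiment within 2 weeks. In each mouse, 1 TA received 10 μg of empty pcDNA3 plasmid (Control muscles) and the other 10 μg of pcDNA3 carrying full-length human *FRAIL1*, a long noncoding RNA, behind the cytomegalovirus promoter (*FRAIL1* muscles). Both TAs were collected at day 7, and both groups share the hyaluronidase injection and the electroporation that carried the plasmid into the muscle. The promoter is not specific to muscle fibers, *FRAIL1* has no row in the mouse gene table, and the counts sum over all cells of the tissue.

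Collagens are sorted by the structures they build. Fibrillar collagens, of which types I, III and V are the ones abundant in muscle connective tissue, form the fibers that carry load between muscle fibers and into tendon. Type IV collagens form the sheet-like network of the basement membrane around each muscle fiber and capillary, and type VI collagens form beaded filaments that link that sheet to the surrounding fibers. FACITs sit on the surface of fibrils, multiplexins lie in basement membrane zones and carry long sugar chains, and the transmembrane collagens span the membrane of the cell that makes them. In adult muscle most fibrillar collagen mRNA comes from fibroblast-like cells between the fibers, and type IV chains are also made by muscle fibers and endothelial cells.

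Upstream sequences are shown for the chain with the highest level per length, *Col3a1*, and for a pair of genes that differed between the groups, *Col8a1* and *Col24a1*, because their start regions differ in the promoter motifs they hold. Each run is the 250 bases before the start site on the gene's own strand, from RefSeq (GRCm38.p6), which had an entry for 35 of the 44 genes. Capitals mark the TATA box TATAAA, the CCAAT box or the GC box GGGCGG, on either strand, and overlapping matches run together.

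*Col3a1*, chr1:45311288-45311537, plus strand: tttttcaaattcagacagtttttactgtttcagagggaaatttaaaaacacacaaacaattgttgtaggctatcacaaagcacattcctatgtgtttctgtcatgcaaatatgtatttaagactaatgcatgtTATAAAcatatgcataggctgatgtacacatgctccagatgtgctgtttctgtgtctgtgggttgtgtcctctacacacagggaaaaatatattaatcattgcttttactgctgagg
*Col8a1*, chr16:57754738-57754987, minus strand: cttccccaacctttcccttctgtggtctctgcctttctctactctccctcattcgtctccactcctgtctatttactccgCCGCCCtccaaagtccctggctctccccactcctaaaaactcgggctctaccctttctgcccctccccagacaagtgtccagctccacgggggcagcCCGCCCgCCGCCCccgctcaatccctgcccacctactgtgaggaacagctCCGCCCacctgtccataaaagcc
*Col24a1*, chr3:145292222-145292471, plus strand: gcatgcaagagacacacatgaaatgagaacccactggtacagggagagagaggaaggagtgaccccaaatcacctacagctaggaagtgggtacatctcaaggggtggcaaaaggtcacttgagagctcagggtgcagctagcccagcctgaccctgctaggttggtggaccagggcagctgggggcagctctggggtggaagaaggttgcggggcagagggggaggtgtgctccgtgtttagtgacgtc

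The *Col3a1* window holds 1 TATAAA, the *Col8a1* window 4 copies of GGGCGG, and the *Col24a1* window none of these motifs. TATAAA is in 5 of the 35 collagen windows (14.3%) and in 13% of 27025 mouse windows of the same length. CCAAT is in 12 of 35 (34.3%), against 34.5% of all windows. GGGCGG is in 21 of 35 (60%), against 32.9%. Windows were counted whether or not they overlap annotated exons, as that of *Col4a1* does over all 250 bases. A match of letters is a description and not a bound site.

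Total counts ranged from 45018389 to 59309210 in Control muscles and from 44848322 to 60527385 in *FRAIL1* muscles. Counts are given as CPM, scaled to library size with TMM factors, and n is 6 muscles per group throughout. The 44 genes took 0.281 ± 0.0498% (SD) of the counts in Control muscles and 0.519 ± 0.259% (SD) in *FRAIL1* muscles. *FRAIL1* muscle 5 stood apart, with 1.04% of its counts in collagen genes, while the other 5 *FRAIL1* muscles began at 0.369% and the Control muscles ended at 0.334%. Results are therefore also given without that muscle. Muscles with the same number were treated as those of 1 mouse.

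Of the 44 genes, 42 had enough counts to be tested, and *Col6a4*, with 0 to 14 counts per muscle, and *Col10a1*, with 0 to 16, did not. In edgeR's quasi-likelihood test, with p-values adjusted by Benjamini-Hochberg over 15502 genes, 10 of the 42 passed an adjusted p of 0.05 as higher in *FRAIL1* muscles, where 4.43% of all genes tested did. None of the 42 passed as lower, against 1.85% of all genes. The 10 were 4 of 11 fibrillar chains, 2 of 9 FACITs, 1 of 6 type IV chains, 1 of 4 transmembrane chains, *Col8a1* and *Col26a1*, and 0 of 5 tested type VI chains passed. At an unadjusted p under 0.05 the count was 25 of 42, against 27.7% of all genes tested. The log2 fold change, *FRAIL1* over Control, was above 0 for 35 of 42, against 51.6% of all genes, and its median was 0.53, against 0.0096 over all genes. Without *FRAIL1* muscle 5 the median was 0.39 and 12 genes passed as higher, where 3.69% of all genes did. With the mouse as a block 11 passed as higher, where 7.48% of all genes did. The CPM of all 6 *FRAIL1* muscles lay above those of all 6 Control muscles for 10 of the 42, against 3.12% of all genes.

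The number of calls depended on single muscles, for the collagen genes as for all genes. It was 1 without Control muscle 1, where 2.13% of all genes passed as higher, 3 without Control muscle 2 (2.22% of all genes), 2 without Control muscle 3 (2.11%), 1 without Control muscle 4 (2.62%) and 3 without Control muscle 5 (2.6%). Without Control muscle 6 it was 8 (2.64%). Leaving out *FRAIL1* muscle 1 gave 3 (2.01% of all genes), muscle 2 gave 13 (6%) and muscle 3 gave 16 (7.87%). Leaving out *FRAIL1* muscle 4 gave 4 (2.67%), muscle 5 gave 12 (3.69%) and muscle 6 gave 8 (3.21%). In each of these fits no chain passed as lower.

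**Figure D1:**
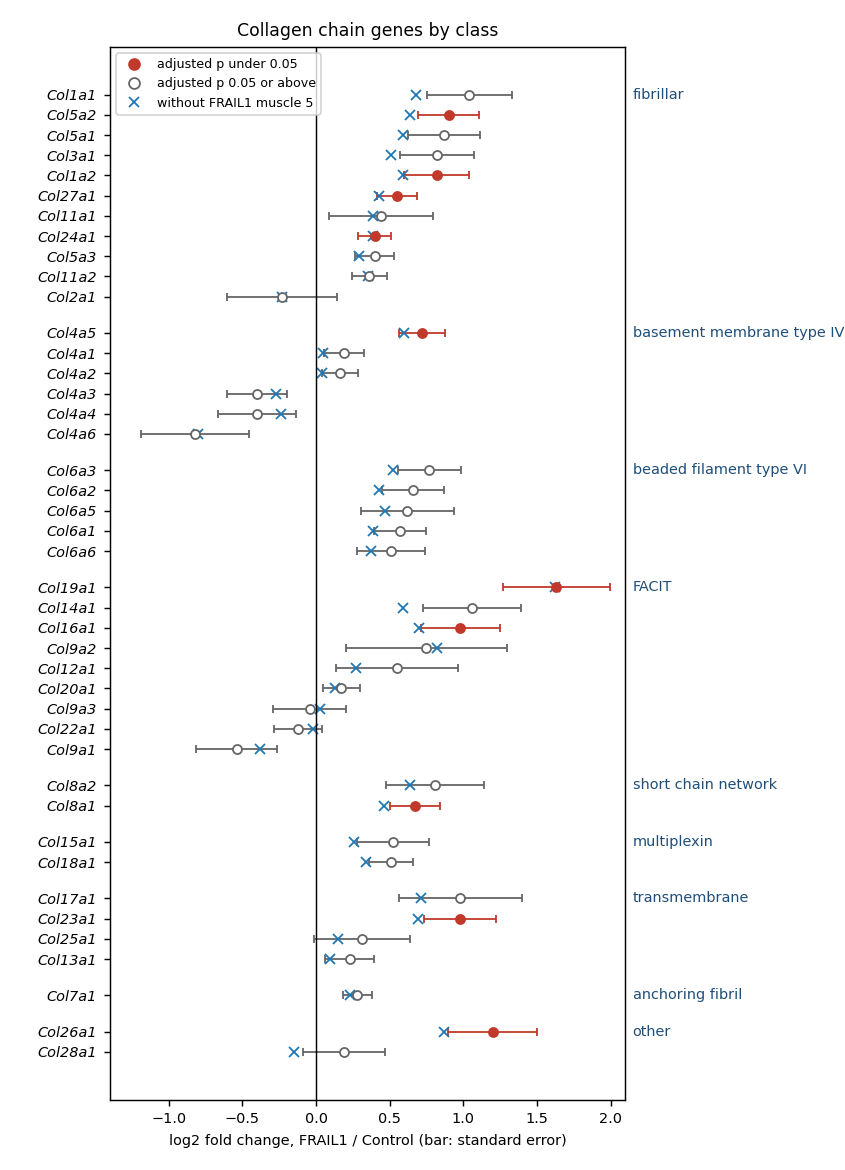
Log2 fold change, *FRAIL1* over Control, with its standard error for the 42 tested collagen chain genes, grouped by class, with filled red points for an edgeR adjusted p under 0.05 and crosses for the value without *FRAIL1* muscle 5. Points lie right of 0 for 35 of 42 genes, and the crosses of most fibrillar and type VI chains lie left of their points.

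Per kilobase of exon, the most abundant chain in Control muscles was *Col3a1*, with 131 ± 29 CPM per kb (SD), followed by *Col1a2* with 79.7 ± 18.7 and *Col1a1* with 75.8 ± 16.3. The last pair differed by less than their spread. The main type IV chains came next, *Col4a1* at 50.0 ± 6.11 and *Col4a2* at 41.1 ± 4.61 CPM per kb, and then *Col6a1* at 23.1 ± 3.83 and *Col6a2* at 20.5 ± 4.02. In *FRAIL1* muscles *Col3a1* was again first, at 232 ± 109.7 CPM per kb, and *Col1a1* (156 ± 88.3) and *Col1a2* (141 ± 52.8) again differed by less than their spread. Fibrillar chains made up 64.3 ± 2.52% (SD) of the collagen CPM per kb in Control muscles and 70.7 ± 3.2% in *FRAIL1* muscles, and their share was larger on the *FRAIL1* side in 6 of 6 mice. The share of type IV chains was 18.8 ± 2.09% and 13.4 ± 2.59%, and was larger on that side in 0 of 6 mice. Type VI chains took 10.6 ± 0.482% and 10.1 ± 0.694%. These shares sum to a fixed whole, so a larger share of one class lowers the others.

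The fibrillar chains had 4 of 11 members past the threshold, all higher, *Col1a2*, *Col5a2*, *Col24a1* and *Col27a1*. The median log2 fold change of the 11 was 0.55, and 0.43 without *FRAIL1* muscle 5. *Col1a2* (Gene ID 12843, chr6:4505618-4541543), the second chain of type I collagen, had 283 to 577 CPM in Control muscles (median 424) and 542 to 1307 CPM in *FRAIL1* muscles (median 661). The groups overlapped through Control muscle 6, at 577 CPM, while in each of the 6 mice the *FRAIL1* muscle was the higher. Its log2 fold change was 0.82 ± 0.22 (SE) with an edgeR adjusted p of 0.0472, which became 0.0501 without *FRAIL1* muscle 5, 0.0642 with the mouse as a block and up to 0.159 over the 23 alternative fits. It passed in 3 of the 12 fits that left out 1 muscle, with an adjusted p of up to 0.0929 without Control muscle 3. *Col1a1*, the first chain of type I collagen, had 310.5 to 575 CPM in Control muscles (median 433) and 609 to 1969 CPM in *FRAIL1* muscles (median 704). All 6 *FRAIL1* muscles lay above all Control muscles, and muscle 5 had more than any other, the next being 934 CPM. The log2 fold change of 1.04 ± 0.289 (SE) did not pass the threshold (edgeR adjusted p 0.0522). Without *FRAIL1* muscle 5 it was 0.68, with an adjusted p of 0.0309. The edgeR adjusted p was 0.0927 with the mouse as a block, and 0.153 with the block and without both muscles numbered 5. Of the 12 fits that left out 1 muscle, *Col1a1* passed in 3.

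*Col3a1*, the chain of the fine reticular fibers, had 449 to 880.1 CPM in Control muscles (median 749) and 977 to 2531 CPM in *FRAIL1* muscles (median 1044). The groups did not overlap, and apart from muscle 5 the *FRAIL1* values lay close together, up to 1173 CPM. This gave a log2 fold change of 0.82 ± 0.252 (SE; edgeR adjusted p 0.0671), and 0.51 without *FRAIL1* muscle 5 (adjusted p 0.0572). Its exons share 2.53% of their length with the predicted gene *Gm47302* on the same strand.

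Type V collagen starts and limits the width of type I fibrils. *Col5a2* (Gene ID 12832, chr1:45374331-45503282), which lies beside *Col3a1* on the opposite strand, had 53 to 78.4 CPM in Control muscles (median 68.7) and 87.9 to 226 CPM in *FRAIL1* muscles (median 110.2). The groups did not overlap, and muscle 5 was again the highest. The log2 fold change was 0.90 ± 0.205 (SE; edgeR adjusted p 0.0286), and 0.64 without *FRAIL1* muscle 5 (adjusted p 0.00194). It passed in 18 of the 23 alternative fits and in 7 of the 12 that left out 1 muscle, with an adjusted p of 0.0648 without Control muscle 1. *Col5a1* had 50.5 to 84.8 CPM in Control muscles (median 78.9) and 89.5 to 255 CPM in *FRAIL1* muscles (median 114), with no overlap. Its log2 fold change was 0.87 ± 0.244 (SE; edgeR adjusted p 0.0536), and 0.59 without *FRAIL1* muscle 5 (adjusted p 0.043). With the mouse as a block the edgeR adjusted p was 0.0953, and 0.202 with the block and without both muscles numbered 5. Of the 12 fits that left out 1 muscle, *Col5a1* passed in 4. *Col5a3* had 47 to 79.3 CPM in Control muscles (median 66.4) and 66.6 to 118 CPM in *FRAIL1* muscles (median 83.4). The groups overlapped, in mouse 6 the *FRAIL1* muscle was the lower, and the log2 fold change was 0.40 ± 0.132 (SE; edgeR adjusted p 0.0748).

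**Figure D2:**
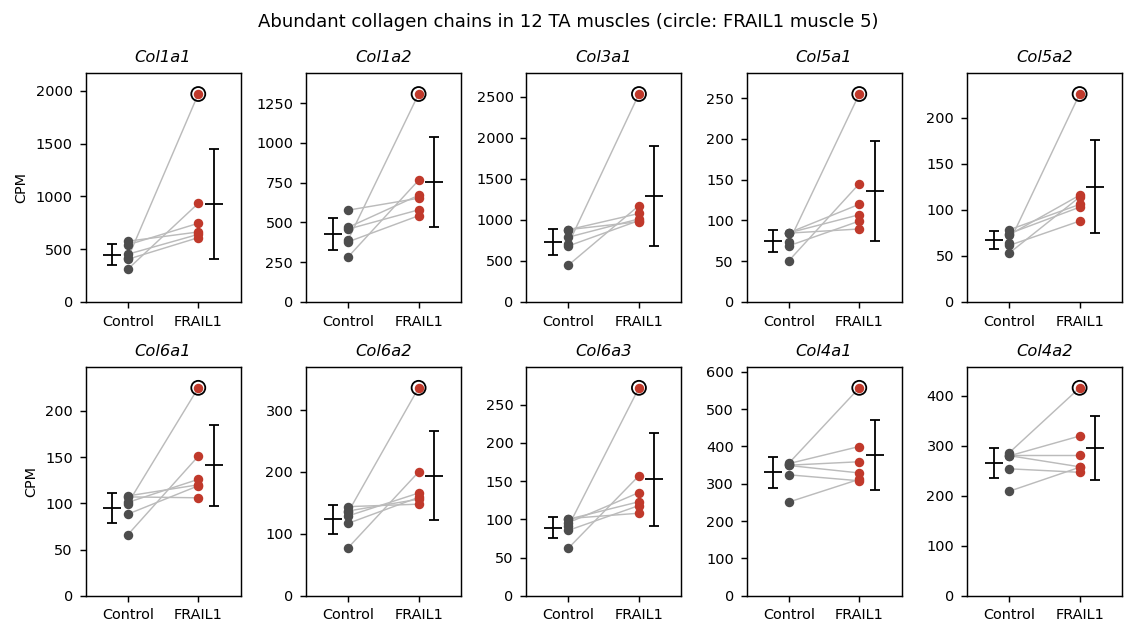
CPM of 10 abundant collagen chain genes in Control (grey) and *FRAIL1* (red) muscles, with lines joining muscles of the same number, bars for mean ± SD (n = 6 per group) and a circle around *FRAIL1* muscle 5. For the type I, III, V and VI chains the *FRAIL1* muscles have the higher means, with muscle 5 at the top, and the main type IV chains *Col4a1* and *Col4a2* overlap between the groups.

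The low fibrillar chains *Col24a1* and *Col27a1*, known from bone and cartilage, had smaller log2 fold changes than the type I and III chains, *Col5a1* and *Col5a2*. *FRAIL1* muscle 5 had little weight for *Col24a1*, while for *Col27a1* it was again the highest, at 8.17 CPM. *Col24a1* (Gene ID 71355, chr3:145292472-145552013) had 4.96 to 6.89 CPM in Control muscles (median 5.53) and 6.05 to 9.33 CPM in *FRAIL1* muscles (median 7.47). The highest *FRAIL1* value was that of muscle 6, and the groups overlapped, although in each mouse the *FRAIL1* muscle was the higher. Its log2 fold change was 0.40 ± 0.112 (SE; edgeR adjusted p 0.0469, and 0.0174 with the mouse as a block), and 0.39 without *FRAIL1* muscle 5, where the adjusted p was 0.0621. It passed in 3 of the 12 fits that left out 1 muscle, with an adjusted p of up to 0.0936 without Control muscle 3. *Col27a1* (Gene ID 373864, chr4:63214009-63334991) had 3.32 to 4.56 CPM in Control muscles (median 3.98) and 4.75 to 8.17 CPM in *FRAIL1* muscles (median 5.66). The groups did not overlap, and the log2 fold change was 0.55 ± 0.138 (SE; edgeR adjusted p 0.0326, and 0.0356 without *FRAIL1* muscle 5, where it was 0.43). It passed in 6 of the 12 fits that left out 1 muscle, with an adjusted p of 0.0732 without Control muscle 1. The cartilage chains *Col11a2* (0.36, adjusted p 0.0751), *Col11a1* (0.44, adjusted p 0.436) and *Col2a1* (-0.23, adjusted p 0.726) did not pass by edgeR's test. *Col11a2* passed with the mouse as a block (edgeR adjusted p 0.0347) but not without *FRAIL1* muscle 5 (0.111).

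In type IV collagen 1 of 6 chains passed, *Col4a5*, and the median log2 fold change of the 6 was -0.12. The 6 genes lie in head-to-head pairs. *Col4a1* and *Col4a2* have RefSeq starts 84 bases apart, those of *Col4a3* and *Col4a4* are 113 bases apart, and those of *Col4a5* and *Col4a6* 1275 bases apart. *Col4a1* and *Col4a2*, the chains of the network found in every basement membrane, did not pass. *Col4a1* had 251 to 355 CPM in Control muscles (median 349) and 308 to 557 CPM in *FRAIL1* muscles (median 344), a log2 fold change of 0.19 ± 0.138 (SE; edgeR adjusted p 0.389). *Col4a2* had 209 to 286 CPM in Control muscles (median 280.0) and 247 to 416 CPM in *FRAIL1* muscles (median 269), a log2 fold change of 0.16 ± 0.122 (SE; edgeR adjusted p 0.409). The medians of the groups were close for both, and without *FRAIL1* muscle 5 the log2 fold changes were 0.046 and 0.039.

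*Col4a5* (Gene ID 12830, chrX:141475370-141689236) encodes a chain that joins trimers with those of *Col4a3* and *Col4a4* or with that of *Col4a6*. It had 1.65 to 2.87 CPM in Control muscles (median 2.19) and 2.91 to 5.03 CPM in *FRAIL1* muscles (median 3.44), from 70 to 269 counts per muscle. The groups did not overlap, muscle 5 being the highest of the *FRAIL1* and the lowest of the Control muscles. This gave a log2 fold change of 0.72 ± 0.159 (SE; edgeR adjusted p 0.0203), and 0.60 without *FRAIL1* muscle 5 (adjusted p 0.0227). It passed in 23 of 23 alternative fits, with an adjusted p of at most 0.0475. Its partner chains had fold changes below 0 that did not pass by edgeR's test, *Col4a3* at -0.40 ± 0.205 (SE; adjusted p 0.219), *Col4a4* at -0.40 ± 0.265 (SE; adjusted p 0.34, and -0.24 without *FRAIL1* muscle 5) and *Col4a6* at -0.82 ± 0.367 (SE; adjusted p 0.163). They are scarce, at 0.117 to 2.26 CPM, and whether *Col4a5* differed from them was not tested.

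Type VI collagen is assembled from *Col6a1*, *Col6a2* and 1 further chain, most often *Col6a3*, and mutations in these genes cause muscular dystrophy in people. None of its 5 tested genes passed by edgeR's test, where 4 had an unadjusted p under 0.05 and their median log2 fold change was 0.62. In DESeq2's Wald test, where 8.37% of all genes passed as higher, *Col6a1*, *Col6a2* and *Col6a3* passed, with 19 collagen genes in all. *Col6a3* had 62.4 to 101 CPM in Control muscles (median 93.3) and 108 to 272 CPM in *FRAIL1* muscles (median 129), with no overlap. Its log2 fold change was 0.77 ± 0.214 (SE; edgeR adjusted p 0.0521), and 0.52 without *FRAIL1* muscle 5 (adjusted p 0.0282). With the mouse as a block the edgeR adjusted p was 0.0748, and 0.179 with the block and without both muscles numbered 5. Of the 12 fits that left out 1 muscle, *Col6a3* passed in 4. *Col6a2* had 77.6 to 144 CPM in Control muscles (median 132) and 148 to 336 CPM in *FRAIL1* muscles (median 162), also without overlap, with a log2 fold change of 0.66 ± 0.211 (SE; edgeR adjusted p 0.076), or 0.43 without *FRAIL1* muscle 5. For *Col6a1*, with 66 to 108 CPM in Control muscles (median 100.2) and 106 to 225 CPM in *FRAIL1* muscles (median 123), the groups overlapped, and the log2 fold change was 0.57 ± 0.176 (SE; edgeR adjusted p 0.0659). The minor chains *Col6a5* and *Col6a6* had 0.294 to 6.58 CPM and log2 fold changes of 0.62 and 0.51 (edgeR adjusted p 0.214 and 0.171).

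Among the 9 FACITs, *Col19a1* and *Col16a1* passed, and the median log2 fold change was 0.55, or 0.27 without *FRAIL1* muscle 5. *Col19a1* (Gene ID 12823, chr1:24257683-24587922), which is made by differentiating muscle cells in the embryo, had the largest log2 fold change of the 42 genes. It had 0.564 to 2.26 CPM in Control muscles (median 1.13) and 1.86 to 7.99 CPM in *FRAIL1* muscles (median 3.72), from 24 to 464 counts per muscle. The highest value was that of *FRAIL1* muscle 2, not muscle 5 (4.3 CPM), and the groups overlapped through Control muscle 3 at 2.26 CPM and *FRAIL1* muscle 1 at 1.86 CPM. For 6 of 6 mice the *FRAIL1* side was the higher. The log2 fold change was 1.63 ± 0.363 (SE; edgeR adjusted p 0.0239), 1.62 without *FRAIL1* muscle 5 (adjusted p 0.0385) and 1.58 ± 0.312 (SE; adjusted p 0.0167) with the mouse as a block. It passed in 10 of the 12 fits that left out 1 muscle, with an adjusted p of up to 0.0596 without Control muscle 1. Its neighbor *Col9a1* (chr1:24177589-24252738, on the other strand) had 1.44 to 3.86 CPM in Control muscles and 0.729 to 2.51 CPM in *FRAIL1* muscles. For all 6 mice the *FRAIL1* side had the lower value, and the log2 fold change of -0.54 ± 0.275 (SE) had an edgeR adjusted p of 0.214, or 0.0854 with the mouse as a block.

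*Col16a1* (Gene ID 107581, chr4:130047817-130099277), which binds to small fibrils and to cells, had 8.49 to 16.2 CPM in Control muscles (median 11.8) and 15.7 to 45.2 CPM in *FRAIL1* muscles (median 20.5). The overlap was that of Control muscle 6 with *FRAIL1* muscle 3, and muscle 5 was the highest. Its log2 fold change was 0.98 ± 0.266 (SE; edgeR adjusted p 0.0492), which became 0.70 without *FRAIL1* muscle 5 (adjusted p 0.0501), while blocking on the mouse gave an adjusted p of 0.0953. It passed in 2 of the 12 fits that left out 1 muscle, with an adjusted p of up to 0.0977 without Control muscle 1. *Col14a1*, which coats fibrils in growing tendon and muscle, had a log2 fold change of 1.06 ± 0.333 (SE; edgeR adjusted p 0.0738) that was 0.59 without *FRAIL1* muscle 5 (adjusted p 0.0213). Its value in that muscle was 70.6 CPM, where the other 11 muscles had at most 24.6 CPM. *Col14a1* had an edgeR adjusted p of 0.126 with the mouse as a block. Of the 12 fits that left out 1 muscle, it passed in 1. *Col12a1*, a FACIT of tendon and muscle sheaths, ranged from 5.08 to 26.6 CPM in Control muscles, which covers most of the *FRAIL1* range of 11.5 to 33.3 CPM, and its log2 fold change was 0.55 ± 0.412 (SE; edgeR adjusted p 0.413), or 0.27 without *FRAIL1* muscle 5. *Col22a1*, a marker of the junction between muscle and tendon, had a log2 fold change of -0.12 ± 0.162 (SE; edgeR adjusted p 0.675), or -0.018 without *FRAIL1* muscle 5. *Col20a1*, *Col9a2* and *Col9a3* had log2 fold changes of 0.17, 0.75 and -0.044, with edgeR adjusted p-values of 0.388 to 0.928.

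**Figure D3:**
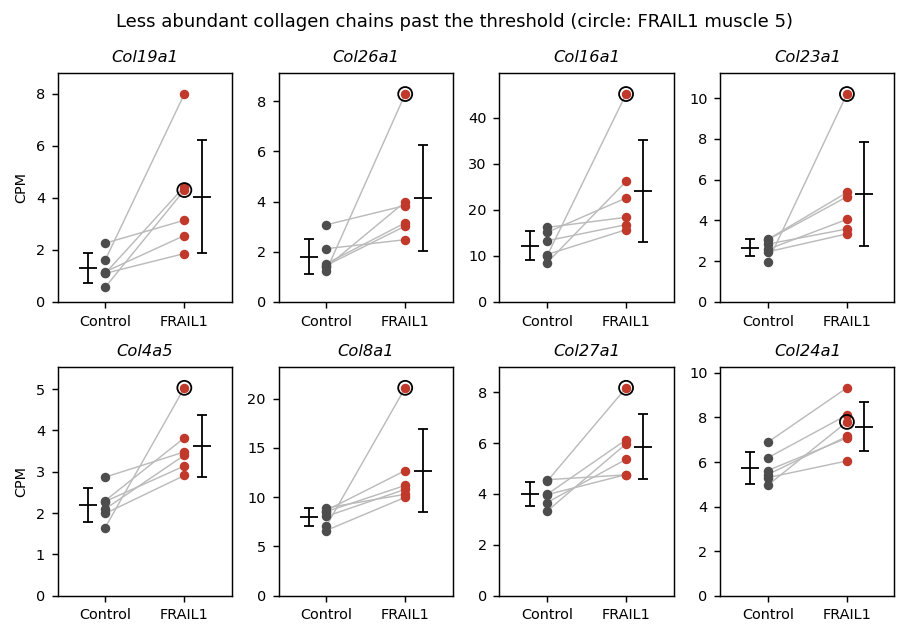
CPM of the 8 less abundant collagen chain genes that passed the threshold in Control (grey) and *FRAIL1* (red) muscles, with lines joining muscles of the same number, bars for mean ± SD (n = 6 per group) and a circle around *FRAIL1* muscle 5. *Col19a1* has its top value in muscle 2 and *Col24a1* in muscle 6, and the other 6 genes in muscle 5.

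Of the transmembrane collagens 1 of 4 passed, *Col23a1* (Gene ID 237759, chr11:51289679-51583925). It had 1.97 to 3.07 CPM in Control muscles (median 2.71) and 3.34 to 10.2 CPM in *FRAIL1* muscles (median 4.6), with no overlap. Its log2 fold change was 0.98 ± 0.244 (SE; edgeR adjusted p 0.0332), and 0.69 without *FRAIL1* muscle 5 (adjusted p 0.0172). It passed in 4 of the 12 fits that left out 1 muscle, with an adjusted p of up to 0.0705 without Control muscle 1. *Col13a1*, which muscle fibers place at the neuromuscular junction, had 1.4 to 2.92 CPM over all muscles and a log2 fold change of 0.23 ± 0.166 (SE; edgeR adjusted p 0.382), or 0.094 without *FRAIL1* muscle 5. *Col25a1*, needed for motor axons to enter developing muscle, had 0.24 to 1.01 CPM and a log2 fold change of 0.31 ± 0.325 (SE; edgeR adjusted p 0.559), or 0.15 without that muscle. *Col17a1*, a component of skin hemidesmosomes, had 0.0814 to 0.972 CPM and a log2 fold change of 0.98 ± 0.417 (SE; edgeR adjusted p 0.143).

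The short chain collagen *Col8a1* (Gene ID 12837, chr16:57624256-57754737), which forms hexagonal lattices and is made in vessel walls, had 6.62 to 8.91 CPM in Control muscles (median 8.29) and 9.99 to 21.1 CPM in *FRAIL1* muscles (median 11). The groups did not overlap, and the *FRAIL1* muscles other than muscle 5 reached 12.7 CPM. This gave a log2 fold change of 0.67 ± 0.169 (SE; edgeR adjusted p 0.0349), and 0.46 without *FRAIL1* muscle 5 (adjusted p 0.011), and it passed in 5 of the 12 fits that left out 1 muscle, with an adjusted p of up to 0.0778 without Control muscle 3. Its partner *Col8a2*, at 0.846 to 5.03 CPM, had a log2 fold change of 0.81 ± 0.333 (SE; edgeR adjusted p 0.137). *Col26a1* (Gene ID 140709, chr5:136741759-136883376), a chain first described in testis and ovary, had 1.22 to 3.07 CPM in Control muscles (median 1.49) and 2.48 to 8.28 CPM in *FRAIL1* muscles (median 3.5). Control muscle 6, at 3.07 CPM, overlapped with *FRAIL1* muscles 2 and 3. The log2 fold change was 1.20 ± 0.303 (SE; edgeR adjusted p 0.0362), and 0.87 without *FRAIL1* muscle 5 (adjusted p 0.0297). It passed in 4 of the 12 fits that left out 1 muscle, with an adjusted p of up to 0.0829 without Control muscle 1.

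The multiplexin *Col18a1*, the source of endostatin, had 19.5 to 25.8 CPM in Control muscles (median 24) and 25.7 to 52.3 CPM in *FRAIL1* muscles (median 30.1). The groups overlapped by 1 pair of values, and the log2 fold change was 0.51 ± 0.15 (SE; edgeR adjusted p 0.0568, or 0.029 with the mouse as a block and 0.0213 without *FRAIL1* muscle 5). Of the 12 fits that left out 1 muscle, *Col18a1* passed in 3. *Col15a1*, which stabilizes the outer face of the muscle fiber's basement membrane, had 37.5 to 80.3 CPM in Control muscles (median 67.8) and 63 to 165 CPM in *FRAIL1* muscles (median 78.2), a log2 fold change of 0.52 ± 0.245 (SE; edgeR adjusted p 0.189), or 0.26 without *FRAIL1* muscle 5. *Col7a1*, the chain of anchoring fibrils, had 20.4 to 41.4 CPM over all muscles. Its log2 fold change was 0.28 ± 0.0998 (SE; edgeR adjusted p 0.089, or 0.0174 with the mouse as a block and 0.175 without *FRAIL1* muscle 5). *Col28a1*, a chain best known from peripheral nerve, had a log2 fold change of 0.19 ± 0.277 (SE; edgeR adjusted p 0.699) that was -0.15 without *FRAIL1* muscle 5.

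Summed over each class, the mean CPM of the fibrillar chains was 1836 ± 380.2 (SD) in Control and 3351 ± 1539 (SD) in *FRAIL1* muscles, a ratio of 1.82, or 1.49 without *FRAIL1* muscle 5. The ratio was 1.58 for type VI chains (1.36 without that muscle), 1.48 for FACITs (1.28), 1.64 for transmembrane chains (1.38), 1.62 for short chain collagens (1.41), 1.43 for multiplexins (1.22) and 1.13 for type IV chains (1.03). The fibrillar, type VI, transmembrane, short chain and multiplexin sums were larger on the *FRAIL1* side in 6 of 6 mice, the FACIT sum in 5 and the type IV sum in 4. A sum is led by its most abundant chains. In tissue samples, fewer cells of a type and less RNA per cell cannot be told apart, and the same holds for more of either.

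**Figure D4:**
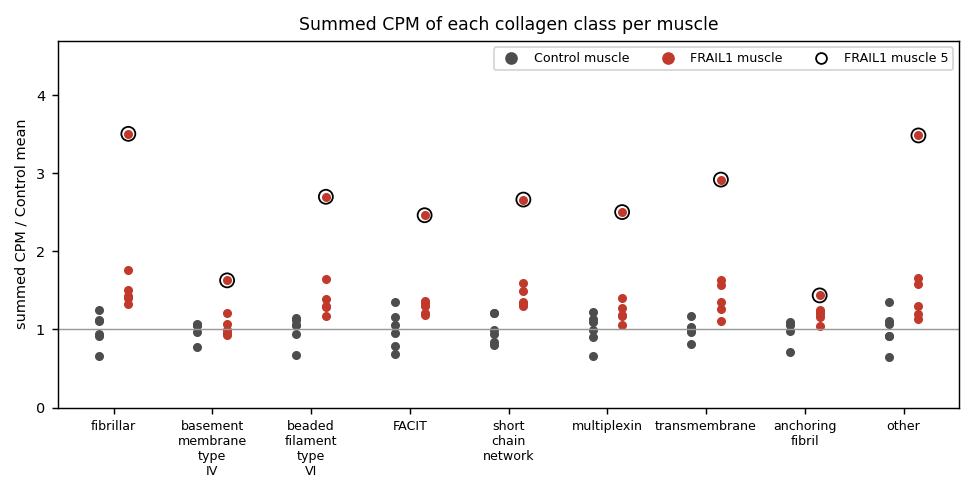
Summed CPM of each collagen class per muscle, divided by the mean of the 6 Control muscles, for Control (grey) and *FRAIL1* (red) muscles, with a circle around *FRAIL1* muscle 5. The *FRAIL1* muscles lie above 1 in every class except type IV, and muscle 5 is the highest in each class.

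Ratios between chains within a muscle do not depend on the scaling of the library. The 8 ratios compared were of chains that share a trimer or belong to different types, as log2 of counts plus 0.5, tested by a two-sided exact permutation test over muscles and adjusted over the 8. *Col4a1* to *Col1a1*, a basement membrane chain against a fibrillar one, lay between -0.74 and -0.19 (median -0.34) in Control muscles and between -1.82 and -0.61 (median -1.12) in *FRAIL1* muscles. In 6 of 6 mice the *FRAIL1* muscle had the lower ratio. The mean difference was -0.76, with an exact permutation p of 0.00649 and an adjusted p of 0.026. Without *FRAIL1* muscle 5 the difference was -0.64, with an exact permutation adjusted p of 0.0519, and it passed in 4 of the 12 cases with 1 muscle left out. Those in which it did not pass were Control muscles 1, 2, 3 and 5 and *FRAIL1* muscles 1, 4, 5 and 6, each at an exact permutation adjusted p of 0.0519.

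*Col6a1* to *Col1a1* lay between -2.43 and -2.05 in Control muscles (median -2.21) and between -3.13 and -2.35 in *FRAIL1* muscles (median -2.60). The mean difference was -0.39, with an exact permutation p of 0.013 and an adjusted p of 0.0346, and again all 6 mice had the lower ratio on the *FRAIL1* side. It passed in 4 of the 12 cases with 1 muscle left out, and the exact permutation adjusted p was 0.0693 without any of the same 8 muscles. *Col3a1* to *Col1a1* differed by -0.17 (exact permutation p 0.102, adjusted p 0.163) and was also lower on the *FRAIL1* side in all 6 mice. The ratios to *Col1a1* share that chain, so they are not independent of each other.

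Within type VI, *Col6a3* to *Col6a1* lay between -0.13 and -0.045 in Control muscles (median -0.077) and between -0.011 and 0.27 in *FRAIL1* muscles (median 0.051). The groups did not overlap. The mean difference was 0.17, with an exact permutation p of 0.00216, the smallest that 6 against 6 muscles can give, and an adjusted p of 0.0173. It passed in 12 of 12 cases with 1 muscle left out, which follows from the lack of overlap and is not separate support. Without *FRAIL1* muscle 5 the difference was 0.13 (exact permutation adjusted p 0.0346). *Col6a1* to *Col6a2* differed by -0.074 (exact permutation p 0.139, adjusted p 0.185).

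The type I chains *Col1a1* to *Col1a2*, which join in fixed numbers, had a ratio per exon length of 0.956 ± 0.0567 (SD) in Control and 1.07 ± 0.155 (SD) in *FRAIL1* muscles. Their log2 ratio differed by 0.15 (exact permutation p 0.0996, adjusted p 0.163), or 0.074 without *FRAIL1* muscle 5. The ratio of *Col4a1* to *Col4a2* differed by 0.024 on the log2 scale (exact permutation p 0.307, adjusted p 0.351) and spanned 0.27 to 0.42 over the 12 muscles. *Col5a1* to *Col5a2* differed by -0.038 (exact permutation p 0.677, adjusted p 0.677). Paired by mouse, an exact sign-flip permutation test gave p 0.0312, the smallest 6 mice can give, for *Col6a3* to *Col6a1*, *Col4a1* to *Col1a1*, *Col6a1* to *Col1a1*, *Col3a1* to *Col1a1* and *Col6a1* to *Col6a2*. Each had an adjusted p of 0.05 and so did not pass. As each p was already at its floor, this test with 6 mice cannot decide whether these ratios differ.

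**Figure D5:**
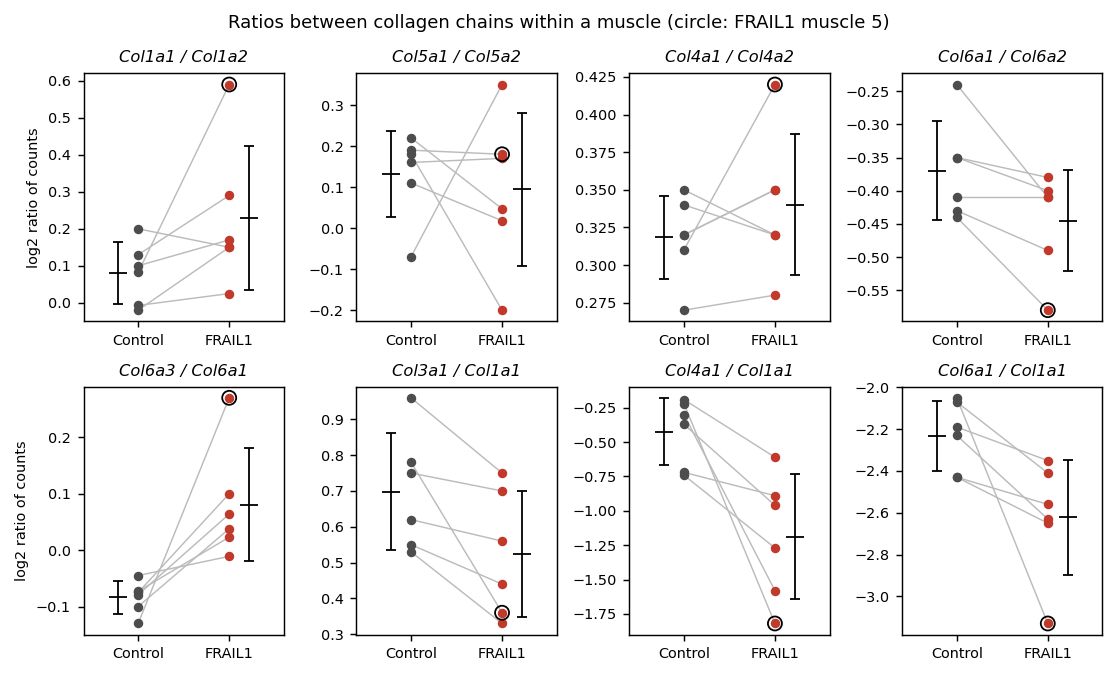
Log2 ratio of counts for 8 pairs of collagen chain genes in Control (grey) and *FRAIL1* (red) muscles, with lines joining muscles of the same number, bars for mean ± SD (n = 6 per group) and a circle around *FRAIL1* muscle 5, each panel on its own scale. *Col6a3* to *Col6a1* does not overlap between the groups, and *Col4a1* to *Col1a1* and *Col6a1* to *Col1a1* have lower values on the *FRAIL1* side in every mouse. The same holds for *Col3a1* to *Col1a1* and *Col6a1* to *Col6a2*.

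Genes that make, release, crosslink, bind and cut collagen were read from the same edgeR fit. Of 51 listed genes 48 were tested, 8 passed as higher and 1 as lower, where 4.43% and 1.85% of all genes did, with a median log2 fold change of 0.31, or 0.20 without *FRAIL1* muscle 5. Blocking on the mouse gave 13 and 2, against 7.48% and 6.62% of all genes. Of 19 genes for hydroxylation, glycosylation and folding, *P4ha3* (1.29 ± 0.356, SE), a prolyl hydroxylase subunit, and *Plod2* (0.67 ± 0.156, SE), a lysyl hydroxylase, passed. Of 9 tested for secretion and propeptide cleavage *Adamts2* (0.44 ± 0.108, SE), which removes the amino-terminal propeptide, passed, and of 5 crosslinking enzymes *Lox* (0.91 ± 0.166, SE). Of 9 receptors *Itgb1* (0.26 ± 0.0696, SE) and *Ddr1* (0.32 ± 0.0772, SE) passed as higher and *Itga1* (-0.30 ± 0.0775, SE) as lower. Of 6 tested for cleavage *Mmp14* (0.96 ± 0.226, SE), a membrane-bound collagenase, and *Ctsk* (1.12 ± 0.219, SE), which degrades collagen inside lysosomes, passed. Their edgeR adjusted p-values lay between 0.0124 and 0.0469. Of these 9, *P4ha3* no longer passed without *FRAIL1* muscle 5 (edgeR adjusted p 0.0693). Over the 12 fits that left out 1 muscle, *Lox* and *Ctsk* passed in 12 and *Plod2* in 9. *Adamts2* and *Ddr1* passed in 6, *Itga1*, *Itgb1* and *Mmp14* in 4, and *P4ha3* in 3.

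Markers of the cells in the tissue were read beside the collagen genes, and their part in the collagen values was not tested. Over all genes tested, 4.43% passed as higher, 1.85% passed as lower and 27.7% had an unadjusted p under 0.05. With the mouse as a block 7.48% passed as higher and 6.62% as lower. Without *FRAIL1* muscle 5 these were 3.69% as higher and 393 of 15590 genes as lower. Skeletal fiber markers were present in every muscle, summing to between 106933 and 160326 CPM, and no marker listed was at 0 in any muscle. The 14 fibroblast markers had 0 past the threshold by edgeR's test, 5 at an unadjusted p under 0.05, and summed to 712 to 1131 CPM in Control and 837 to 1094 CPM in *FRAIL1* muscles. That sum is led by *Gsn* (246 to 535 CPM over all muscles, log2 fold change -0.20) and *Dcn* (126 to 234 CPM, 0.019). The log2 fold change was above 0 for 10 of the 14, with a median of 0.21, or 0.071 without *FRAIL1* muscle 5. Larger values were those of *Lum* (0.75), *Mfap5* (0.72), *Pdgfra* (0.44), *Osr1* (0.39) and *Dpt* (0.30). They dropped to 0.48, 0.46, 0.31, 0.32 and 0.059 without *FRAIL1* muscle 5, where *Mfap5* passed (edgeR adjusted p 0.0463). Besides *Gsn*, the markers *Ly6a* (-0.18), *Pi16* (-0.14) and *Dpp4* (-0.11) were below 0. Of 6 tenocyte markers *Scx*, *Thbs4* and *Tnc* passed as higher, and the sum went from 155 to 317 CPM in Control to 261 to 498 CPM in *FRAIL1* muscles, the highest being muscle 6. Without *FRAIL1* muscle 5 *Thbs4* did not pass (edgeR adjusted p 0.0892). The 6 markers of regenerating fibers had 5 past the threshold as higher, with sums of 164 to 215 CPM in Control and 327 to 1554 CPM in *FRAIL1* muscles, the highest being muscle 5. Of 11 macrophage markers 0 passed by edgeR's test, 8 had an unadjusted p under 0.05 and 6 passed with the mouse as a block, and their sums were 265 to 421 CPM and 331 to 842 CPM, with the highest in *FRAIL1* muscle 1. Of 10 endothelial markers *Tek*, *Vwf* and *Flt1* passed as lower, with sums of 560.3 to 656 CPM in Control and 449 to 559 CPM in *FRAIL1* muscles. With the block 5 endothelial markers passed as lower, and without *FRAIL1* muscle 5 *Vwf* did not pass (edgeR adjusted p 0.0518) while *Pecam1* did (0.0309). Of the smooth muscle and Schwann cell markers, 8 each, 0 passed by edgeR's test and 3 and 2 had an unadjusted p under 0.05. Their log2 fold changes were above 0 for 2 and 1 of the 8. With the block 1 of each passed as lower, *Rgs5* (-0.45, edgeR adjusted p 0.0023) and *Prx* (-0.51, edgeR adjusted p 0.0313). Among 8 fast fiber markers *Ckm* passed as lower, and 3 did without *FRAIL1* muscle 5. Among 6 proliferation markers *Cdk1* passed as higher, and 4 did with the block.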

How the data were processed

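RNA-seq counts of 12 TA muscles, 6 Control and 6 *FRAIL1*, were analysed. The authors removed adaptors from paired reads with Trimmomatic, mapped them to mm10 with STAR 2.7.8a and deposited featureCounts 2.0.1 counts of uniquely mapped reads per gene, which are whole numbers without normalization. Whether strand was used in counting is not given in the sources used here. Of 27179 Gene IDs, 25275 matched a symbol in RefSeq GRCm38.p6, and the others held 0.28% of counts. The members and lists were chosen with earlier results of these data known. After filterByExpr (15502 genes kept) and TMM scaling, edgeR 4.0.16 (R 4.3.3) was run as a robust quasi-likelihood test, unblocked, at a Benjamini-Hochberg adjusted p under 0.05. CPM per kb used exon lengths of the GENCODE M21 basic annotation. Ratios used exact permutation tests (scipy 1.17.1). Alternatives were a mouse block, other scalings and filters, each muscle left out, both muscles numbered 5 left out, DESeq2 1.42.0, limma 3.58.1 voom and a fit that was not robust. Values are named for every member, in full for those past the threshold, those without overlap and the chains of types I, III, IV (a1, a2), V, VI (a1 to a3), XV and XVIII. The design text says that each mouse gave both TAs. Deviations from group means over 15502 genes correlated by 0.2 on average between muscles of 1 number (0.0547 to 0.282, lowest for number 5). The mean of the other pairs, -0.04, follows from this because deviations cancel within a group, and is not separate support. Other pairs reached 0.173 (Control muscle 5 with *FRAIL1* muscle 1). *FRAIL1* muscle 5 correlated by 0.09 with Control muscle 4, above its value for number 5, so these values do not show its pairing. Muscles of 1 number were taken as 1 mouse. No library was a copy of another. Copies of collagen transcripts (BLAST 2.17.0, at least 98% identity over 100 bases) were found for 5 collagen genes and lie in genes that overlap them.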

Additional observations from a re-analysis of the deposited data

Results flagged for a closer look

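Listed here are values that stood apart within their group of 6 muscles, by the gap between the highest or lowest muscle and its nearest neighbor as a share of the group's range (Dixon's 95% limit). Of 118 groups of values checked, 31 met this, where chance gives about 1 in 20 groups. *FRAIL1* muscle 5 was the muscle in 25 of the 31, in each as the highest, so they describe 1 muscle and are not independent of each other.

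In *FRAIL1* muscle 5 the fibrillar chains stood at 1969 CPM for *Col1a1*, 1307 for *Col1a2*, 2531 for *Col3a1*, 255 for *Col5a1*, 226 for *Col5a2* and 118 for *Col5a3*, and their class sum at 6440.3 CPM. The nearest other *FRAIL1* muscle had 934 CPM of *Col1a1*, 1173 of *Col3a1* and a fibrillar sum of 3243 CPM. The basement membrane chain *Col4a1* was at 557 CPM there, and the type VI chains *Col6a2* and *Col6a3* were at 336 and 272 CPM, with a type VI sum of 841 CPM. Among the minor chains, *Col8a1* was at 21.1 CPM, *Col13a1* at 2.92, *Col14a1* at 70.6, *Col15a1* at 165, *Col16a1* at 45.2, *Col18a1* at 52.3, *Col23a1* at 10.2, *Col26a1* at 8.28 and *Col28a1* at 4.09 CPM. The class sums of that muscle were 26.3 CPM for short chain collagens, 174 for FACITs, 15.1 for transmembrane chains, 218 for multiplexins and 12.4 CPM for *Col26a1* and *Col28a1* together. The same muscle had the highest sum of regenerating fiber markers, 1554 CPM, and its part in these values was not tested.

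Among Control muscles 6 values stood apart. Muscle 1 was the lowest for *Col4a1* (251 CPM), for the type IV sum (465 CPM) and for the log2 ratio of *Col5a1* to *Col5a2* (-0.0703). Muscle 2 was the highest for *Col4a4* (1.68 CPM). Muscle 6 was the lowest for *Col7a1*, at 20.4 CPM, which is counted again as the anchoring fibril sum of 20.4 CPM.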

How the results depend on the processing

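The 10 collagen genes that passed were the same 10 with DESeq2's size factors, upper-quartile scaling or TMM without the mitochondrial and the 20 most counted genes. The number passing as higher differed between settings, and the share of all genes that did is given in brackets. The number did not always follow that share. It was 19 with DESeq2's Wald test (8.37%) and 21 with DESeq2 and the replicate block (9.71%). In the latter 1, *Col9a1*, passed as lower, as did 1399 of 15201 genes. With limma voom it was 18 (6.41%), and 16 with edgeR's fit that was not robust (4.77%). It was 13 with at least 10 counts in every muscle (4.82%), 7 with no filter (2.67%) and 11 with the replicate block in edgeR (7.48%). With 1 muscle left out it lay between 1 (without Control muscle 1, 2.13%, or 4, 2.62%) and 16 (without *FRAIL1* muscle 3, 7.87%). Over all genes, the 974 calls became 2186 with the replicate block, 2305 with the block and without both muscles numbered 5, 2211 and 2875 with DESeq2 without and with the block, 1836 with limma voom, and 364 to 2110 with 1 muscle left out (without *FRAIL1* muscles 1 and 3). The share of calls that were higher was 70.5%, 53% with the block, 63.7% with upper-quartile scaling and 57.5% with DESeq2. The causes of these shifts were not tested. The log2 fold change of *Col28a1* turned to -0.26 with the block and without both muscles numbered 5, to -0.14 with limma voom and lay between -0.15 and 0.31 with 1 muscle left out. That of *Col9a3* turned to 0.047 and 0.066 in the first and second of these and lay between -0.14 and 0.059 in the third. Neither gene passed in any fit. Under the paired sign-flip test the ratio differences of -0.76 (*Col4a1* to *Col1a1*), -0.39 (*Col6a1* to *Col1a1*) and 0.17 (*Col6a3* to *Col6a1*) had an exact permutation adjusted p of 0.05, from the smallest p that 6 mice can give. With 1 muscle left out they ranged from -0.88 to -0.64, from -0.44 to -0.29 and from 0.13 to 0.18, and *Col5a1* to *Col5a2* ranged from -0.089 to 0.02, reversing without *FRAIL1* muscle 6. Depth limited mainly *Col6a4* and *Col10a1*, with at most 16 counts per muscle, and genes such as *Col9a2*, with 2 to 33.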
